A study of Homo sapiens with 6 samples.

Results

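Nuclear tRNA genes held the summit of 221 of the 256139 peaks called from RNA immunoprecipitation of HEK293T cells that overexpressed the splicing protein SmD2. A peak is a stretch of the genome where the reads piled up above the caller's background, and its summit is the base of greatest pileup. Members were chosen by position alone: the summit had to lie inside a gene of biotype tRNA in the RefSeq table of build GRCh38, on chromosomes 1 to 22, X or Y. The table held 429 such genes on the assembled chromosomes, and 168 of them had a summit in at least 1 of the peak lists. Each gene had at most 1 summit in a list.

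The study used RNA immunoprecipitation sequencing (RIP-seq), which recovers RNA together with a protein, to ask whether SmD2 interacts with RNA that carries pseudouridine. HEK293T is an established human embryonic kidney line. The series has 6 samples in 2 genotypes, 3 replicates that overexpressed SNRPD2, the gene of SmD2 (genotype SNRPD2OE), and 3 controls (genotype Ctrl). The 3 overexpression lists were analysed. The controls were not analysed here. The labels name no promoter, tag, clone or antibody for the overexpression, and do not say whether the replicates were separate cultures, so the spread between them may be technical. Without control lists, no value below separates RNA bound through SmD2 from RNA that was abundant in the cells. Peak lists hold no expression levels, so the cell line was not checked against marker genes.

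SmD2 is one of the Sm proteins that form a ring on the spliceosomal small nuclear RNAs, and tRNA is not among the classical Sm ring substrates. RNA polymerase III transcribes tRNA genes from promoter elements inside the gene, the A box and the B box, and the B box letters become the T loop of the tRNA. Nearly every cytosolic tRNA carries a pseudouridine in that loop, and pseudouridines are common in the anticodon arm too. Human tRNA genes occur in families of near-identical copies. In a symbol such as TRG-GCC1-5, the letter after TR is the amino acid (glycine), GCC is the anticodon, the next number is the distinct mature sequence (the isodecoder), and the last is the gene copy with that sequence.

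The gene sequences show what lay under the summits. They came from RefSeq promoter windows of GRCh38.p14, of 300 bases each, 250 before and 50 after the start of a gene. No tRNA gene had a window of its own, but 14 lay whole inside the window of another gene, and 6 of these 14 had a summit. The B box was searched on both strands as GGTTCGANNCC, which occurred in 65 of 35116 windows (0.185%). It occurred once in 9 of the 14 tRNA genes and set their strand. Below, capitals mark the anticodon and then the B box, and letters are counted from 1 at the 5′ end. Of these 9 genes, 5 had a summit, and all 5 are shown. The first 3 had one in 2 lists each, and the fourth is a relative of the third without a summit. The fifth had a summit inside the B box, and the last pair are identical copies of which only the first had one.
TRR-ACG2-1, arginine, chr3:45688999-45689071, minus strand: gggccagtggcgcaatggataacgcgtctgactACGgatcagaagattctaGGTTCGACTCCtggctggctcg
TRI-AAT8-1, isoleucine, chr6:27668583-27668656, plus strand: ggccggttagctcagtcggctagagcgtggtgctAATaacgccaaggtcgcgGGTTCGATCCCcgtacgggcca
TRN-GTT6-1, asparagine, chr1:143735920-143735993, minus strand: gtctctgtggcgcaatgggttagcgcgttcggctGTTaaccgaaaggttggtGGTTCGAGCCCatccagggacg
TRN-GTT4-1, asparagine, chr1:16889677-16889750, plus strand: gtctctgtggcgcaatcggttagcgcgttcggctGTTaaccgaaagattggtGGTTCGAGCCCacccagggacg
TRF-GAA1-5, phenylalanine, chr13:94549650-94549722, minus strand: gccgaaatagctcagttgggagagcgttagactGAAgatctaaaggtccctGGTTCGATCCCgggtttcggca
TRH-GTG1-3, histidine, chr1:148281365-148281436, plus strand: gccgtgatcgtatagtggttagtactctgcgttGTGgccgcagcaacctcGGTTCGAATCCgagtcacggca
TRH-GTG1-9, histidine, chr15:45201151-45201222, plus strand: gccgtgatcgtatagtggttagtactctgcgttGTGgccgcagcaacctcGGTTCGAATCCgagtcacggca

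In TRR-ACG2-1 the summits were at letter 39 in replicate 1 (35 reads) and letter 44 in replicate 3 (24 reads), between the anticodon and the B box. In TRN-GTT6-1 they were at letters 49 and 44 in replicates 1 and 3 (10 reads each), also between the capitals. In TRI-AAT8-1 they were at letter 51 in replicate 1 (16 reads), 2 letters before the B box, and at letter 54 in replicate 2 (12 reads), 1 letter past its first. In TRF-GAA1-5 the summit was at letter 60, inside the B box (letters 52 to 62), in replicate 3 alone, with 6 reads in a peak 98178 bp wide. TRN-GTT4-1 differs from TRN-GTT6-1 by C17G, A47G and C65T, the first base being that of TRN-GTT4-1, and it had no summit in any list. TRH-GTG1-3 had a summit at letter 32 in replicate 3 alone, with 2 reads in a peak 25458 bp wide, and its identical copy TRH-GTG1-9 had none. How reads that match several copies were placed is not given in the sources used here, so a summit names a place where reads were put and not always the copy they came from.

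The 3 lists differed in kind. They held 30111, 160931 and 65097 peaks in replicates 1, 2 and 3. The number of reads at each summit was worked out from the authors' deposited fold and −log10 p-value, and is the unit of signal below. Replicate 2 held 114912 peaks of 1 read, and replicate 3 held 35777 such peaks and 49284 peaks over 1000 bp wide, against 0 and 2 in replicate 1. The highest number of reads at any summit was 78, 80 and 78, which is 2 times the narrowest peak of each list (39, 40 and 39 bp). The strongest peak in SNRPD2 itself stood at exactly these numbers, and whether reads have a ceiling there was not tested. No tRNA summit had more than 47 reads. Library totals were not available from peak lists, so the depth of each sample is unknown and reads are compared within a list only.

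tRNA genes held summits far more often than the ground beside them. A summit lay in 64, 60 and 97 of the 429 genes in replicates 1, 2 and 3, or 14.9%, 14% and 22.6% (17.2% ± 4.73, SD, n = 3). Over all 58961 genes of the table, which are far longer (median 5556 bp against 73 bp), the shares were 19.3%, 43.4% and 35%. Windows of the same lengths moved 500 bp to the low-coordinate side held a summit in 3, 4 and 4 cases (0.855% ± 0.135), and windows moved to the high side in 2, 7 and 4 cases (1.01% ± 0.587). In every list the tRNA genes thus stood above both sets of windows by more than the spread between replicates. With peaks of at most 1000 bp alone, which removes the wide peaks of replicate 3, the counts were 64, 60 and 67 genes (14.8% ± 0.819).

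Other short RNA genes gave a scale for these shares. The 149 small nuclear RNA (snRNA) genes held a summit in 13.4%, 24.8% and 17.4% (18.6% ± 5.79). This class is the whole RefSeq biotype, which includes the known partners of the Sm ring and was not split by them. That mean differs from the tRNA mean by less than the spread of either class. The 1193 small nucleolar RNA (snoRNA) genes, whose products guide modification of other RNAs, had 6.15% ± 4.003. The 1913 microRNA genes, of median length 80 bp, had 0.749% ± 0.438. The 108 tRNA pseudogenes, with about the length of the genes (median 72.5 bp), had 2.78%, 5.56% and 7.41% (5.25% ± 2.33), lower than the tRNA genes in each of the 3 lists.

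**Figure D1:**
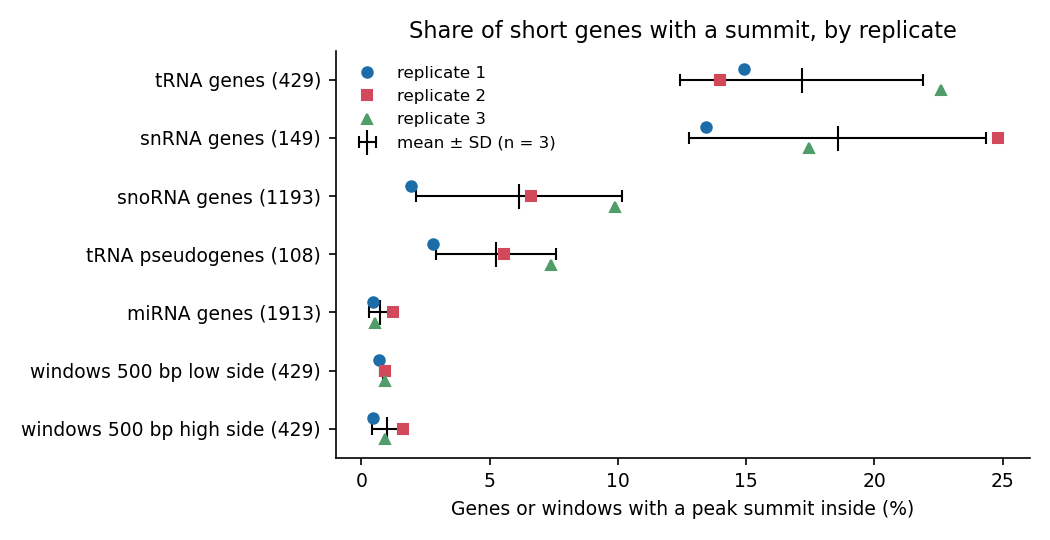
Share of genes with a peak summit inside (%), for 5 classes of short genes and for windows 500 bp on either side of the tRNA genes. Points are the 3 replicates, the vertical tick is their mean and the bar 1 SD; numbers of genes stand in parentheses. The tRNA points lie between 14% and 22.6%, in the range of the snRNA genes, and both sets of windows lie below 2%.

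Few genes recurred. Of the 168 genes with a summit, 121 had it in 1 list, 41 in 2 lists and 6 in all 3, while 261 had none. A summit in any list was thus found in 39.2% of tRNA genes and 49.9% of all genes, but a summit in all 3 lists in 1.4% of tRNA genes and 15.3% of all genes. All genes are far longer (median 5556 bp against 73 bp) and can share a list without sharing a site. Length was not matched here, and recurrence in the other short gene classes was not computed. Replicates 1 and 2 shared 17 tRNA genes, which is 26.6% of those in replicate 1 and 28.3% of those in replicate 2. Over all genes of the table, the same pair shared 92.3% of those in replicate 1 and 41.0% of those in replicate 2. Replicates 1 and 3 shared 24 tRNA genes (37.5% and 24.7%, against 82.8% and 45.6% over all genes). Replicates 2 and 3 shared 18 (30% and 18.6%, against 67.6% and 83.8%). Each tRNA share stood above the share of all 429 tRNA genes in the other list, which was 14.9%, 14.0% and 22.6% for replicates 1, 2 and 3. Where 2 lists shared a gene, the median distance between their summits was 4 nt over 59 such pairs. The largest was 22 nt, and 49 of 59 pairs were within 10 nt. A gene in all 3 lists entered with 3 pairs. Both summits had to lie in 1 short gene, and 62.0% of all tRNA summits lay within 10 nt of the gene midpoint. Small distances are thus partly set in advance, and none between unrelated genes was computed.

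The 6 genes with a summit in every list were of 4 amino acids. TRL-TAG3-1, the only gene of its leucine isodecoder (chr16:22195711-22195792, in no other gene), had 43, 34 and 42 reads in replicates 1, 2 and 3. The caller's background there, in reads, was 3.34, 9.03 and 0.0769. Its peak was the highest-ranked tRNA peak of replicates 1 and 3 by −log10 p. The summit lay at base 21, 26 and 21 of the 82 bp, counted from the low-coordinate end.

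TRG-GCC1-5 (chr21:17454789-17454859) carries a glycine sequence with 5 gene copies and had 47, 42 and 44 reads. The background there was 26.7, 22.6 and 7.88 reads, so that the authors' deposited folds were only 1.72, 1.82 and 4.05. The summits were at base 33, 35 and 33 of 71. The other 4 copies, all on chromosome 1 between TRG-GCC1-1 at 161443304 and TRG-GCC1-4 at 161465538, had no summit in any list.

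Serine made up 3 of the 6. TRS-TGA2-1 (chr6:27545689-27545770) had 20, 19 and 16 reads with summits at base 34, 37 and 39 of 82. TRS-GCT3-1 (chr11:66348120-66348201, inside B4GAT1-DT) had 15, 6 and 9 reads. TRS-GCT4-1 (chr6:28597340-28597421, inside the protein-coding gene SCAND3) had 6, 5 and 5 reads, and its peak in replicate 3 was 5720 bp wide. The sixth gene, the tryptophan gene TRW-CCA2-1 (chr17:19508181-19508252), had 8, 9 and 7 reads at bases 44, 46 and 44 of 72. TRS-GCT4-1 and TRW-CCA2-1 stayed under 10 reads in every list.

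**Figure D2:**
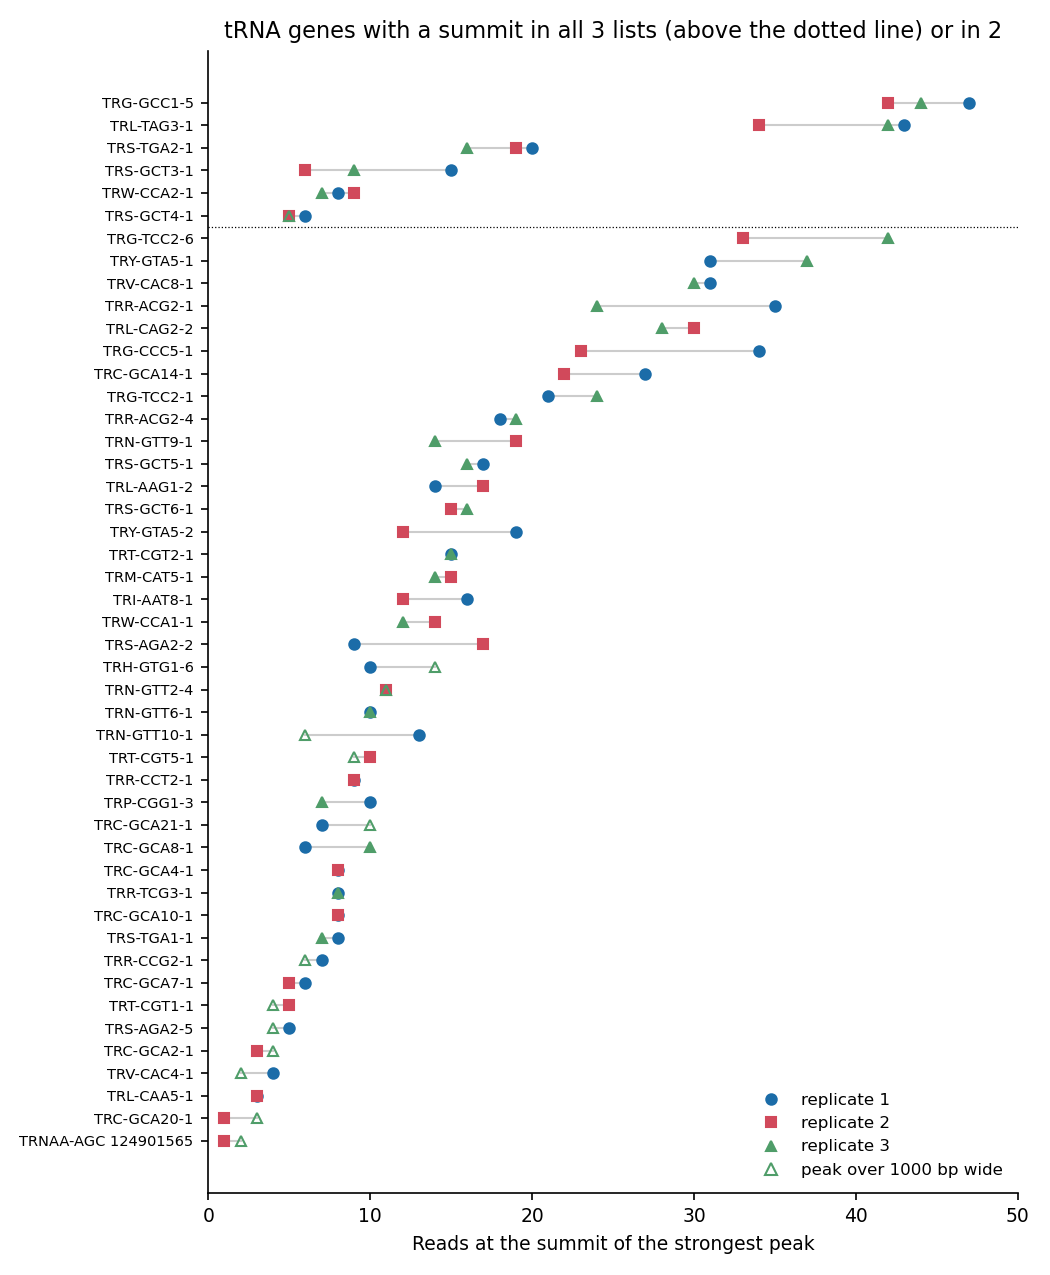
Reads at the summit of the strongest peak in each tRNA gene with a summit in all 3 lists (6 genes, above the dotted line) or in 2 lists (41 genes), by replicate. Open triangles are replicate 3 peaks over 1000 bp wide. TRG-GCC1-5 and TRL-TAG3-1 stand at 34 to 47 reads in all 3 replicates, and the remaining 4 genes above the line at 5 to 20.

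The strongest peaks of each list were mostly in different genes. By −log10 p, the leading 5 tRNA genes of replicate 1 were TRL-TAG3-1, TRR-ACG2-1 (35 reads), TRN-GTT10-1 (13), TRR-ACG2-4 (18) and TRH-GTG1-6 (10). Those of replicate 2 were TRC-GCA23-1 (8 reads), TRW-CCA2-1 (9), TRV-CAC1-1 (10), TRV-AAC3-1 (32) and TRI-AAT8-1 (12). Those of replicate 3 were TRL-TAG3-1, TRG-CCC6-1 (44 reads), TRP-CGG1-1 (21), TRG-TCC1-1 (32) and TRD-GTC3-1 (26). Only TRL-TAG3-1 was among the leading 5 of more than 1 list. The order follows the background as well as the reads: TRC-GCA23-1 led replicate 2 with 8 reads over a background of 0.0361 reads, ahead of TRV-AAC3-1 with 32 reads over 6.32. Among all peaks of their lists, the leading tRNA peaks ranked 7th, 22nd and 14th by −log10 p in replicates 1, 2 and 3.

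tRNA summits held more reads than the typical peak and fewer than snRNA or snoRNA summits. The median was 12, 9.5 and 12 reads in replicates 1, 2 and 3, with ranges of 2 to 47, 1 to 42 and 2 to 44. All peaks of the lists had medians of 4, 1 and 1 reads. Median reads in snRNA genes with a summit were 21.5, 29 and 34, and in snoRNA genes 22, 35 and 29, above the tRNA median in every list. microRNA genes had 7, 1 and 14.5. At least 10 reads were present at 38, 30 and 61 tRNA summits, giving 10.02% ± 3.75 of all tRNA genes, against 6.11% ± 0.459 of all genes.

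The caller's own q-value, its p-value adjusted over the list, was under 0.05 for 12, 22 and 34 of the tRNA peaks (18.8%, 36.7% and 35.1%). Over all peaks the shares were 4.81%, 3.62% and 1.86%. For the strongest peak of each gene they were 40%, 56.8% and 46.2% in snRNA genes and 30.4%, 30.4% and 64.4% in snoRNA genes. The deposited −log10 q was 0, which stands for a q-value of 1, for 37, 24 and 46 tRNA peaks. Of the 6 genes with a summit in every list, only TRL-TAG3-1 had a q-value under 0.05 in each. Each of the others had a −log10 q of 0 in at least 1 list. TRG-GCC1-5 (−log10 q of 0, 0.413 and 1.03 in replicates 1, 2 and 3) was under 0.05 in no list. The same held for TRS-TGA2-1 (0, 1.06 and 0.566). In replicate 3, 30 of 97 tRNA peaks were over 1000 bp wide, with a median width of 26498 bp, a median of 5.5 reads and a background of 0.0316 reads. The 67 narrower ones had a median of 16 reads over 0.307.

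**Figure D3:**
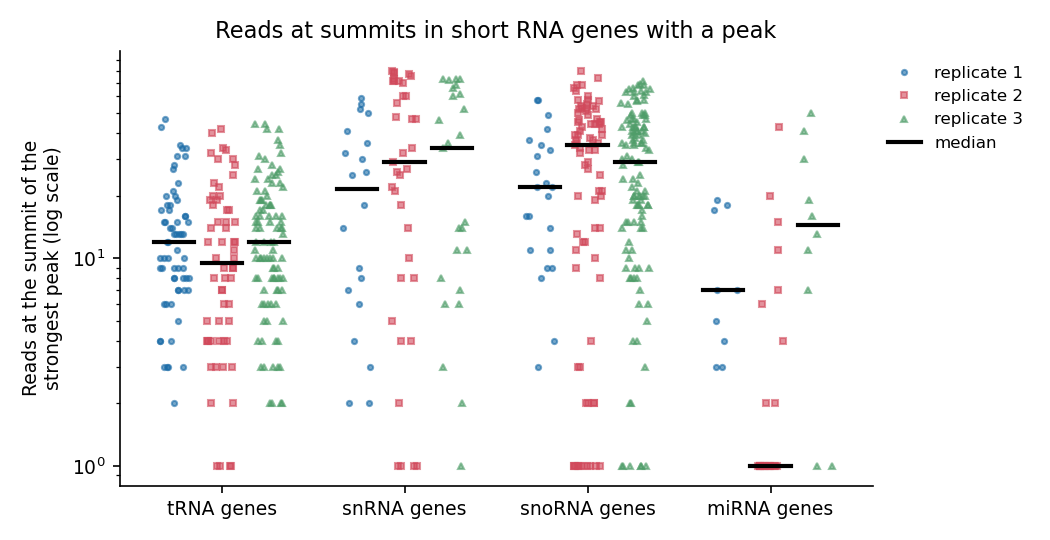
Reads at the summit of the strongest peak in each gene with a summit (log scale), for tRNA, snRNA, snoRNA and miRNA genes by replicate; each point is 1 gene and the black line the median. tRNA genes reach 47 reads at most, with medians of 12, 9.5 and 12, below those of snRNA and snoRNA genes.

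By amino acid, the share of genes with a summit ran from 0 for glutamine to 33.3% for tryptophan. Tryptophan has only 7 genes, and its replicates spread from 14.3% to 57.1% (SD 21.8). Its mean fell to 9.52% with a minimum of 10 reads, and was 21.4% without replicate 2. Serine (26 genes) had 30.8%, 19.2% and 38.5% (29.5% ± 9.68), and cysteine (29 genes) 24.1%, 37.9% and 20.7% (27.6% ± 9.12). Both have 8 genes with a summit in at least 2 lists, the highest number of any amino acid. Next came histidine (25.9% ± 12.8), asparagine (25.4% ± 11.98), glycine (22.2% ± 6.94), arginine (21.8% ± 15.5), leucine (20.8% ± 4.77) and threonine (20% ± 5). From tryptophan to valine (16.7% ± 3.33), each neighbour in the order differed from the next by less than the SD of either.

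Several large groups stood at the lower end. Isoleucine (23 genes) had 10.1% ± 2.51, alanine (37 genes) 9.01% ± 5.63 and lysine (27 genes) 8.64% ± 2.14. The highest alanine share, 13.5%, and the highest lysine share, 11.1%, were below the lowest serine share of 19.2%. These groups were picked from the ends of the order, so the gap between them is no test. Over all tRNA genes the shares were 14.9%, 14% and 22.6%. None of the 19 glutamine genes held a summit in any list. As a rough upper bound, 3 divided by the number of genes, 0 of 19 allows a share of up to 15.8%. The bound takes the genes as independent, and near-identical copies may share reads. Peaks did reach the glutamine genes: 2, 2 and 5 of them were overlapped by a peak whose summit lay outside the gene. With peaks of at most 1000 bp alone the counts were 2, 2 and 2. Over all tRNA genes, any overlap gave a mean share of 24.16%.

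**Figure D4:**
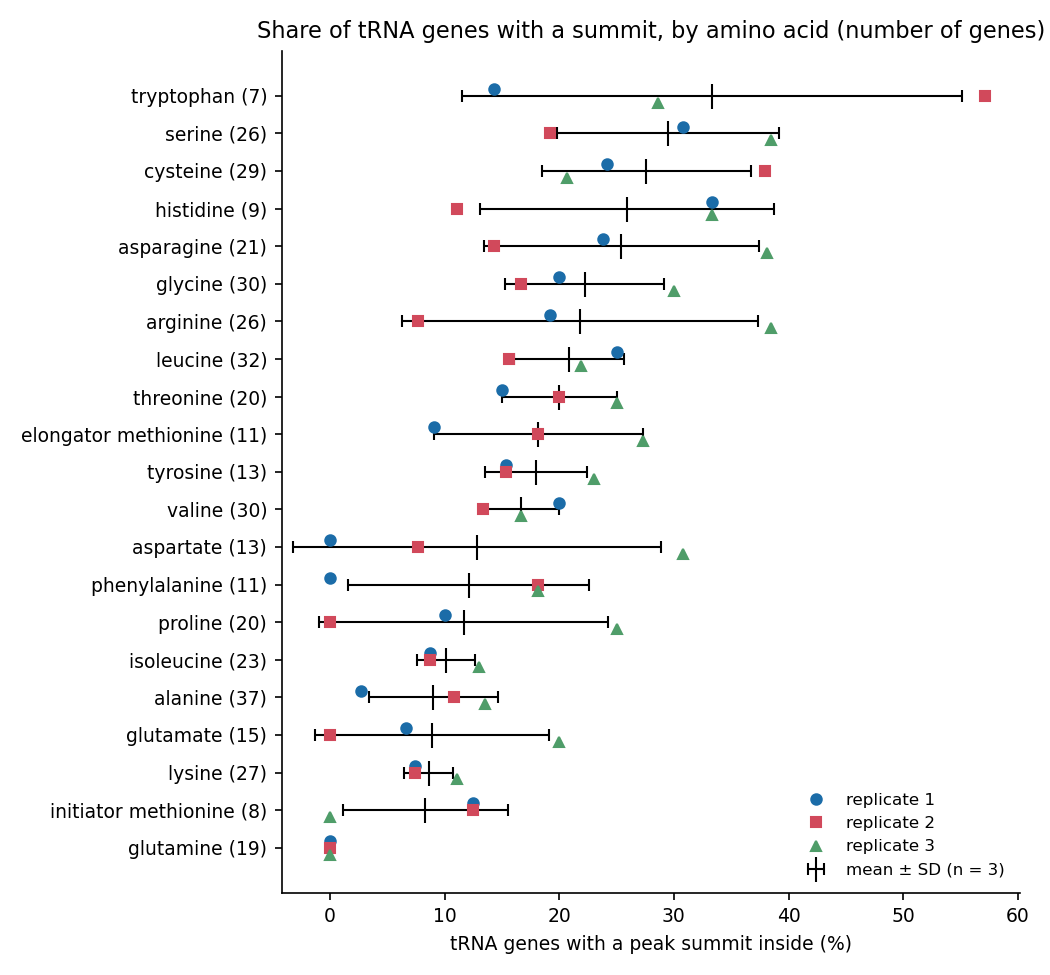
Share of tRNA genes with a summit inside (%), by amino acid, with the number of genes in parentheses; selenocysteine, with 2 genes, is not drawn. Points are the 3 replicates, ticks the mean and bars 1 SD. Serine and cysteine lie between 19.2% and 38.5%, alanine and lysine at 13.5% or below, and glutamine at 0 in all 3 lists.

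Shares varied between anticodons of 1 amino acid, in groups of few genes. Among serine genes, GCT (8 genes) had a summit in 4, 3 and 6 genes (54.2% ± 19.1), the highest mean of the anticodons with at least 5 genes, and 7 of the 8 genes had one in some list. Serine TGA (4 genes) had 2, 1 and 2 genes, and serine AGA (10 genes) 2, 1 and 2 (16.7% ± 5.77). Serine CGA (4 genes) had none, and 4 genes are too few to bound its share. The GCT share exceeded the AGA share in each replicate (50% against 20%, 37.5% against 10%, and 75% against 20%). Serine GCT was picked from the top of the order, so this gap is no test. Threonine CGT (5 genes) followed with 1, 3 and 3 genes (46.7% ± 23.1), and it overtook serine GCT when replicate 1 was left out (60% against 56.2%).

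At the lower end stood proline AGG (9 genes, 3.70% ± 6.42), glutamate CTC (8 genes, 4.17% ± 7.22), lysine CTT (14 genes, 4.76% ± 4.12), and both glutamine anticodons, CTG (13 genes) and TTG (6 genes), at 0. Counting each isodecoder once moved serine GCT to 61.1% and rank 4, behind histidine GTG, whose 9 genes share 1 mature sequence. No anticodon group had a summit in all its genes in 2 or more lists.

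Cysteine GCA summits rested on few reads. In replicate 1 the 7 genes had 4 to 27 reads, in replicate 2 the 11 genes had 1 to 22, and in replicate 3 the 6 genes had 3 to 35. With a minimum of 10 reads the cysteine share was 6.90% and its place in the order fell from 6 to 22. TRC-GCA14-1 (chr17:38861684-38861755, named here after its values were seen) had 27 and 22 reads in replicates 1 and 2 and no summit in replicate 3.

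Tyrosine genes, which carry introns that are spliced out of the tRNA, had a summit in 2, 2 and 3 of 13 (17.9% ± 4.44). TRY-GTA5-1 and TRY-GTA5-2, neighbours inside TRIM55, had 31 and 19 reads in replicate 1. TRY-GTA5-1 had 37 reads in replicate 3 and no summit in replicate 2, and TRY-GTA5-2 had 12 reads in replicate 2 and no summit in replicate 3. The other 3 were TRY-GTA2-1 (18 reads) and TRY-GTA5-3 (19 reads) in replicate 3 and TRY-GTA3-1 (15 reads) in replicate 2. Over all 28 genes longer than 84 bp, selenocysteine left out, the share was 16.7% ± 13.5, against 16.04% ± 3.84 for genes of 70 to 76 bp. Genes of 77 to 84 bp, among them the serine and leucine genes with their long variable arm, had 24.5% ± 6.80. Of the initiator methionine genes, whose tRNA starts translation, TRX-CAT1-8 had 18 reads in replicate 1 and TRX-CAT1-6 had 6 reads in replicate 2, and the remaining 6 of 8 had no summit. Of the selenocysteine genes, TRU-TCA1-1 had 27 reads in replicate 3 alone and TRU-TCA2-1 had no summit.

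The number of gene copies moved with the share. Isodecoders with 1 gene (199 genes) had 18.1%, 15.6% and 25.1%, those with 2 to 4 genes (93) had 12.9%, 14.0% and 22.6%, and those with 5 or more (129) had 12.4%, 10.1% and 18.6%. Single genes were highest in each of the 3 replicates, but the means (19.6% ± 4.95, 16.5% ± 5.30 and 13.7% ± 4.41) overlapped within 1 SD. Without the cysteine genes, 21 of which are single genes, the single genes had 18.2% ± 6.56 and the others 14.8% ± 5.04. The part of read placement in this order was not tested.

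By genomic neighbourhood, runs of tRNA genes with neighbours at most 500 kb apart were taken as clusters. The 38 clusters held 365 genes, of which 13.4%, 14.2% and 19.2% had a summit (15.6% ± 3.11). The 64 genes outside clusters had 23.4%, 12.5% and 42.2% (26.0% ± 15.0). The difference, outside minus inside, was 10.01, −1.75 and 23.01 percentage points in replicates 1, 2 and 3 (10.4 ± 12.4), so its sign was not the same in every replicate and it was smaller than its spread. With peaks of at most 1000 bp alone, replicate 3 gave 7.35 points.

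The largest cluster, 144 genes at chr6:26286526-28989083, had 16, 20 and 21 genes with a summit (13.2% ± 1.84), and 44 of its genes had one in some list. The 32 genes at chr1:161399700-161612029 had 3, 3 and 6 (12.5% ± 5.41). The 19 genes at chr7:149310190-149707740 had 3, 5 and 4 (21.1% ± 5.26), and 18 of the 19 are cysteine genes, among them all 9 genes with a summit in some list. At chr17:8119155-8227064, 1, 1 and 8 of 18 genes had a summit (18.5% ± 22.5). All 8 in replicate 3 were narrow peaks of 6 to 14 reads, so replicate 3 stood apart there without its wide peaks. The 14 genes at chr16:3150674-3192060 had none in any list, which by the same rough bound allows up to 21.4%. Peaks with their summit outside the gene overlapped 0, 1 and 2 of these genes. The 14 genes at chr14:20609336-20684087 had 0, 0 and 2.

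Location inside another gene gave shares within the replicate spread. tRNA genes within a protein-coding gene (43) had 20.9%, 9.30% and 32.6% (20.9% ± 11.6), those within another kind of gene (78) had 11.5%, 16.7% and 29.5% (19.2% ± 9.25), and those in no other gene (308) had 14.9%, 14.0% and 19.5% (16.1% ± 2.95). These means differed by less than the spread of the first 2 groups. The table gives no strand, so reads of a host transcript and of the tRNA cannot be told apart in the 121 genes that lie in another gene.

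Within the gene, summits lay near the middle. With each gene cut into 3 equal parts, the middle part held 47 of 64, 37 of 60 and 72 of 97 summits (73.4%, 61.7% and 74.2%), or 156 of 221 in all. The part at the low-coordinate end held 39 and that at the high end 26. The median distance from the midpoint was 7.5, 9.5 and 6.5 nt, and 137 of 221 summits (62.0%) were within 10 nt of it. Only 6 of 221 lay in the first or last 5 letters of a gene. The midpoint of a tRNA gene lies in or next to the anticodon arm, and without strand for most genes the 2 sides could not be named 5′ or 3′.

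**Figure D5:**
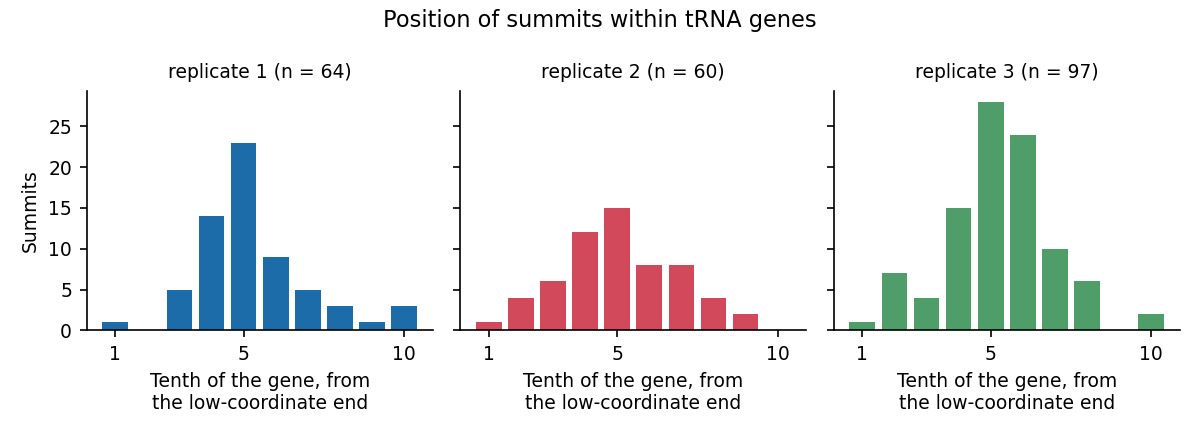
Number of summits in each of 10 equal parts of the tRNA gene, counted from the low-coordinate end, by replicate. In all 3 replicates the fifth part held the most summits (23, 15 and 28), and the outermost parts held 0 to 3.

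This position is bound up with peak width. A peak of 39 bp, the narrowest in replicates 1 and 3, that lies wholly in a gene of 73 bp always covers the midpoint. Of the 191 tRNA peaks of at most 1000 bp, 48 lay wholly inside the gene, 142 reached past 1 end and 1 past both, with a median reach of 19 bp and a largest of 218 bp. Their median width was 71 bp. Summits fell off before the gene ends and not at them: 5, 3 and 7 summits lay within 10 bp inside an end, and 6, 7 and 5 lay in the first 10 bp outside. In other short genes the middle part held 45%, 62.2% and 65.4% of summits (snRNA), 69.6%, 72.2% and 69.5% (snoRNA) and 22.2%, 37.5% and 40% (microRNA). A middle position was thus shared with snoRNA genes and, less evenly between the lists, with snRNA genes. The part of read and gene length in it was not tested.

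The genes that make and use tRNA were read from the same lists, with 104 protein-coding genes in 8 groups. A summit lay in 87, 99 and 82 of them (83.7%, 95.2% and 78.8%), and in 72 in all 3 lists. Over all 19866 protein-coding genes the shares were 45.6%, 77.2% and 65.9%, and 38.8% in all 3 lists. A summit of at least 10 reads in every list was present in 36 of the 104 genes, against 7.52% of protein-coding genes. Gene length and RNA level move such shares, and neither was matched here.

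The cytosolic aminoacyl-tRNA synthetases and their scaffold proteins, which load tRNAs with amino acids, made up 17 of these 36, from a group of 23. Their strongest peaks had 10, 26 and 21 reads in WARS1 (tryptophan) and 14, 23 and 19 in FARSA (phenylalanine). RNA polymerase III subunits gave 5 of 13. In POLR3E the strongest peaks had 10, 24 and 9 reads, in POLR1C 12, 17 and 13, and in POLR3A 6, 14 and 8. The initiation factors TFIIIB and TFIIIC gave 4 of 10, among them GTF3C1 (7, 17 and 8 reads), GTF3C4 (21, 17 and 19) and GTF3C5 (22, 27 and 14). A gene could pass on a second peak with more reads than its strongest by −log10 p.

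A smaller part of each processing and modification group passed. End processing gave 1 of 14, ELAC2, the nuclease that trims the 3′ end, with 12 reads in each list. tRNA splicing gave 2 of 10, the ligase RTCB (11, 18 and 16 reads) and its partner RTRAF (35, 32 and 30). The tRNA pseudouridine synthases gave 1 of 7, PUSL1 (19, 14 and 21). Other modification enzymes gave 6 of 25, among them ELP3 (7, 9 and 13) of the Elongator complex and TRIT1 (18, 9 and 8). The tRNA cleavage pair, ANG and its inhibitor RNH1, gave none. The difference in count between these groups was not tested.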

How the data were processed

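RIP-seq peak lists of 3 SNRPD2OE replicates were used, grouped by genotype from the labels. The 3 controls were not analysed here. The submitters' processing notes name MACS2 2.2.9.1 (a peak caller), STAR 2.7.10b (an aligner), cutadapt 4.2 (an adapter trimmer) and build GRCh38 (hg38). How the caller was run, against which background library, and how strand, duplicates and multiply mapped reads were handled is not given in the sources used here. Library preparation depleted ribosomal RNA, per the labels' protocols, which do not describe the immunoprecipitation. The lists' peak numbering does not begin at 1, so absences hold for the listed peaks only.

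The authors' deposited columns are a score, a fold (a ratio of pileup to background, each plus 1), an unadjusted −log10 p-value and a −log10 q-value per peak, with positions. These are the authors' own values and were used within a list. Reads were recovered from fold and p as the whole number, up to 90, that matched −log10 p within 0.002, given the height of 1 read (0.5995, 1 and 0.2537 in replicates 1, 2 and 3). This failed for 0, 1 and 4 peaks, and 10 tRNA peaks had more than 1 solution, of which the closest was taken. Counts of reads cover counting only, and duplicates cannot be told from molecules.

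Genes came from a RefSeq table with 443 nuclear tRNA genes, of which 14 on other scaffolds were left out, and 8 of the 429 used had no isodecoder number. Shares are given per replicate with mean and SD, and no group comparison or p-value was computed. Named tRNA genes were those with a summit in all 3 lists, the leading 5 per list, and the selenocysteine, initiator and tyrosine genes. Others were named after their values were seen: those with a sequence shown, the copies of TRG-GCC1-5, and TRC-GCA14-1. Pathway genes were named where all 3 lists had at least 10 reads, at most 3 per group; some that met this rule are not reported here. Members, lists and rules were chosen with earlier results of these data known. Alternatives were minimum reads, −log10 q of at least 3, peak width, overlap, list length, cluster distance, copies, and each replicate left out. The steps were tested on simulated data: reads were recovered for 99.9%, 99.8% and 99.8% of 5000 peaks per list, and 200 of 200 planted genes were found. Python 3.11.15, numpy 2.4.6, pandas 2.3.3, scipy 1.17.1 and matplotlib 3.10.9 were used.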

Additional observations from a re-analysis of the deposited data

How the results depend on the processing

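Of 47 alternatives over 7 results, 34 moved the value by less than the replicate spread (or 1.5 times for a count) and 13 by more. Only the difference between genes outside and inside clusters could change its direction, and it did so under no alternative. In replicate 2 by itself that difference was −1.75 points. The mean share of tRNA genes with a summit (17.17%) was 10.02% with at least 10 reads, 2.875% with a −log10 q of at least 3 and 24.16% where any overlap of the peak counted. Without 1 replicate it ranged from 14.45% to 18.76%. The count of genes in all lists (6) was 3 with at least 10 reads, 1 with a −log10 q of at least 3, 15 with any overlap, 12 with summits within 50 bp of the gene, and 11 with any overlap of peaks of at most 1000 bp, a setting chosen after seeing the data. Over 2 lists in place of 3 it ranged from 17 to 24. The serine GCT share (54.17%) was 33.33% with at least 10 reads and ranged from 43.75% to 62.5% without 1 replicate. The share of pathway genes with a summit (85.9%) was 48.72% with at least 10 reads and ranged from 81.25% to 89.42%. Without 1 replicate, the difference between genes outside and inside clusters ranged from 4.133 to 16.51 points, and the share of summits in the middle part from 67.55% to 73.83%. The mean of the lists' median reads, which joins lists of unknown depth, ranged from 10.75 to 12. The causes were not tested.

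No paired analysis was possible because only 1 group had lists to analyse. Counting nucleotides from the 5′ end was not run, since the gene table gives no strand. Copies were counted once by the symbol's isodecoder number, a setting chosen after seeing the data, since the planned count by identical sequence could not be run with sequence for few genes. Depth is unknown, so reads below the caller's threshold are not seen.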
